A study of Mus musculus with 12 samples.

Results

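The genes described here are 8 that control the sterol-sensing transcription factor SREBP2 or act in the uptake of cholesterol and lipoproteins: Srebf2, Scap, Insig1, Insig2, Mylip, Stard4, Npc1l1 and Scarb1. They were chosen by symbol from a promoter table of 43511 rows and 25124 symbols, and each gene was represented by its promoter of highest mean level over the 12 libraries. All 8 were found and all 8 passed the filter on low counts. The measurement is ATAC-seq, in which a transposase cuts open DNA, so a value is the accessibility of a promoter and not the amount of its transcript.

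Livers came from male wild-type C57BL/6N mice, 19 to 20 weeks old and on a chow diet. Control mice received distilled water, another group 10 mg/kg atorvastatin, and the third 100 mg/kg pregnenolone 16α-carbonitrile (PCN). All were dosed by gavage for 4 days and then fasted for 12 h, so that the controls share the gavage and the fast with both drug groups. Each of the 3 groups held 4 libraries. Atorvastatin is a statin, which blocks HMG-CoA reductase, the rate-limiting enzyme of cholesterol synthesis. PCN activates the rodent pregnane X receptor, a nuclear receptor that switches on genes of drug disposal. The labels do not say that the libraries of a group came from separate mice, so p-values measure only the spread between these libraries.

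SREBP2, the product of Srebf2, is made as a membrane protein of the endoplasmic reticulum and is bound there by the escort protein SCAP. When sterols are plentiful, the INSIG proteins hold SCAP back. When sterols fall, SCAP carries SREBP2 to the Golgi, where proteases release its active part, which turns on genes of cholesterol synthesis and uptake, Srebf2 and Insig1 among them. In liver this circuit is known as the one through which statins raise the clearance of lipoproteins from blood.

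Promoter totals ran from 1679054 to 15336000.5 counts per library. Control 3 and atorvastatin 3 stood apart: their median correlation with the other libraries over promoters was 0.698 and 0.744, against 0.897 to 0.966 for the remaining 10 libraries. Values without these 2 libraries are also given, beside those of all 12, for many of the results. The share of counts that fell in the 5% most open promoters, a measure of how concentrated a library's signal was, was 14.9 to 20.3% in control, 13.1 to 19.9% in atorvastatin and 16.5 to 22.6% in PCN libraries. The 6 hepatocyte markers were all above 0 in every group, with summed levels of 111 to 258, 153 to 295 and 185 to 275 CPM (counts scaled to the size of the library) in control, atorvastatin and PCN. The 5 stellate cell and fibroblast markers summed to 37.7 to 70.6, 26.6 to 52.7 and 23.3 to 42.5 CPM. The 5 Kupffer cell markers summed to 18.9 to 65.4, 16.7 to 57.9 and 22.3 to 34.6 CPM. Endothelial markers summed to 32.0 to 66.4, 38.9 to 77.5 and 31.2 to 50.5 CPM, cholangiocyte markers to 44.1 to 72.2, 40.9 to 93.2 and 40.8 to 57.3, lymphocyte markers to 29.5 to 41.5, 17.8 to 64.6 and 20.3 to 34.3, and neutrophil markers to 27.0 to 41.2, 32.7 to 55.5 and 32.3 to 41.2. The 4 enterocyte markers, of a cell type the liver does not hold, summed to 25.3 to 40.2, 14.7 to 38.3 and 18.5 to 23.3 CPM, so that every PCN library lay below every control there. The part of these levels in the results was not tested. Fewer cells of a type and less open chromatin per cell cannot be told apart in whole liver.

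The promoter sequences are shown first because SREBP2, with its partners NF-Y and Sp1, acts through short elements close to the start site. RefSeq windows of GRCm38.p6, the patched form of the build mm10 named by the submitters, were held for 6 of the 8 genes. The 250 bases upstream of the start are printed 5′ to 3′ on the gene's strand for the gene of the factor itself (Srebf2, chr15:82147019-82147268, plus strand), for its feedback inhibitor (Insig1, chr5:28071162-28071411, plus strand), for Mylip (chr13:45389492-45389741, plus strand) and for Npc1l1 (chr11:6230246-6230495, minus strand), the gene with the fewest counts per promoter window. Capitals mark matches on either strand to CCAAT (the NF-Y box), GGGCGG (the GC box), CACGTG (an E-box) and TCACCCCA, an element like the sterol regulatory element.
Srebf2: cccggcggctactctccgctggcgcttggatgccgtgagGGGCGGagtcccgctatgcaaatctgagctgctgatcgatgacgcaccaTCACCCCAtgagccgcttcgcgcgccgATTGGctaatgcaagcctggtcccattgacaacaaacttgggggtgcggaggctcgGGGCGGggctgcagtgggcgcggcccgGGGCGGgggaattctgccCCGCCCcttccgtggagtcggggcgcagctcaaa
Insig1: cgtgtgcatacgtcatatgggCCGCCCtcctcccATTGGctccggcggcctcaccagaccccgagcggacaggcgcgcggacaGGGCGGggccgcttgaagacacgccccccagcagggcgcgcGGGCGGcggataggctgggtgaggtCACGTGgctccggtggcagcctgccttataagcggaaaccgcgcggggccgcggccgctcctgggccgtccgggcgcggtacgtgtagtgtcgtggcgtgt
Mylip: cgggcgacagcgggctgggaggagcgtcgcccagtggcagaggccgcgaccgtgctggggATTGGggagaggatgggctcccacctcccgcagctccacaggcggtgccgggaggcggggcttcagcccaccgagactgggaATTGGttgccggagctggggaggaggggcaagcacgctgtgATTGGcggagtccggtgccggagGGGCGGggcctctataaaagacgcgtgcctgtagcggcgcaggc
Npc1l1: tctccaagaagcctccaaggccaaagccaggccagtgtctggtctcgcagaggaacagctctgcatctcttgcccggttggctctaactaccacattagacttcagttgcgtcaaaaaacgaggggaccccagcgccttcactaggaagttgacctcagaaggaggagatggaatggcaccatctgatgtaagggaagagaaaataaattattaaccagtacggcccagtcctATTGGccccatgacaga

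The Srebf2 sequence holds TCACCCCA starting 162 bases before the start site, a CCAAT box on the opposite strand at 135 bases and GC boxes at 211, 79, 52 and 34 bases, the last of them on the opposite strand. TCACCCCA, whose letters are the first 8 of the fuller element TCACNCCAC with C at the open place, was searched after the sequences had been seen, and 1.56% of 32851 RefSeq windows of 300 bases hold it. TCACNCCAC itself occurs in 1.24% of windows and in none of the 9 windows of the 6 genes. The Insig1 sequence holds a CCAAT box at 216 bases, GC boxes at 229, 167 and 126 bases and CACGTG at 101 bases. The Mylip sequence holds 3 CCAAT boxes, at 190, 108 and 67 bases, and a GC box at 44 bases, whereas the Npc1l1 sequence holds a CCAAT box at 17 bases and no GC box. CCAAT occurs in 37.4%, GGGCGG in 35.7% and CACGTG in 7.15% of all windows. Repeats of AGGTCA or AGTTCA with 3 or 4 bases between them, the spacings bound by nuclear receptors such as the pregnane X receptor and LXR, were in 0.0122% and 0.0274% of windows and in none of these genes. These are matches of letters and not measured binding sites. Insig1, Mylip and Srebf2 windows were rich in G and C (71.7%, 71% and 68.7%) and Npc1l1 was not (51%, against a median of 52.7% over all windows).

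No promoter of the 8 genes passed the test with either drug. With edgeR's quasi-likelihood test and Benjamini-Hochberg adjustment over 41908 promoters, 0 of 8 had an adjusted p under 0.05 in the comparison of PCN with control, of atorvastatin with control, or of PCN with atorvastatin, and DESeq2 and limma-voom gave 0 as well. Over all promoters this call was made for 0% in each of the 3 comparisons. Without adjustment, p was under 0.05 for 1, 0 and 0 of the 8 genes, against 3.75%, 1.93% and 0.73% of all promoters. The 2 groups compared overlapped for all 8 genes in each comparison, while they did not overlap for 3.6%, 0.976% and 0.503% of all promoters. The gene with the unadjusted p under 0.05 was Srebf2 with PCN.

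**Figure D1:**
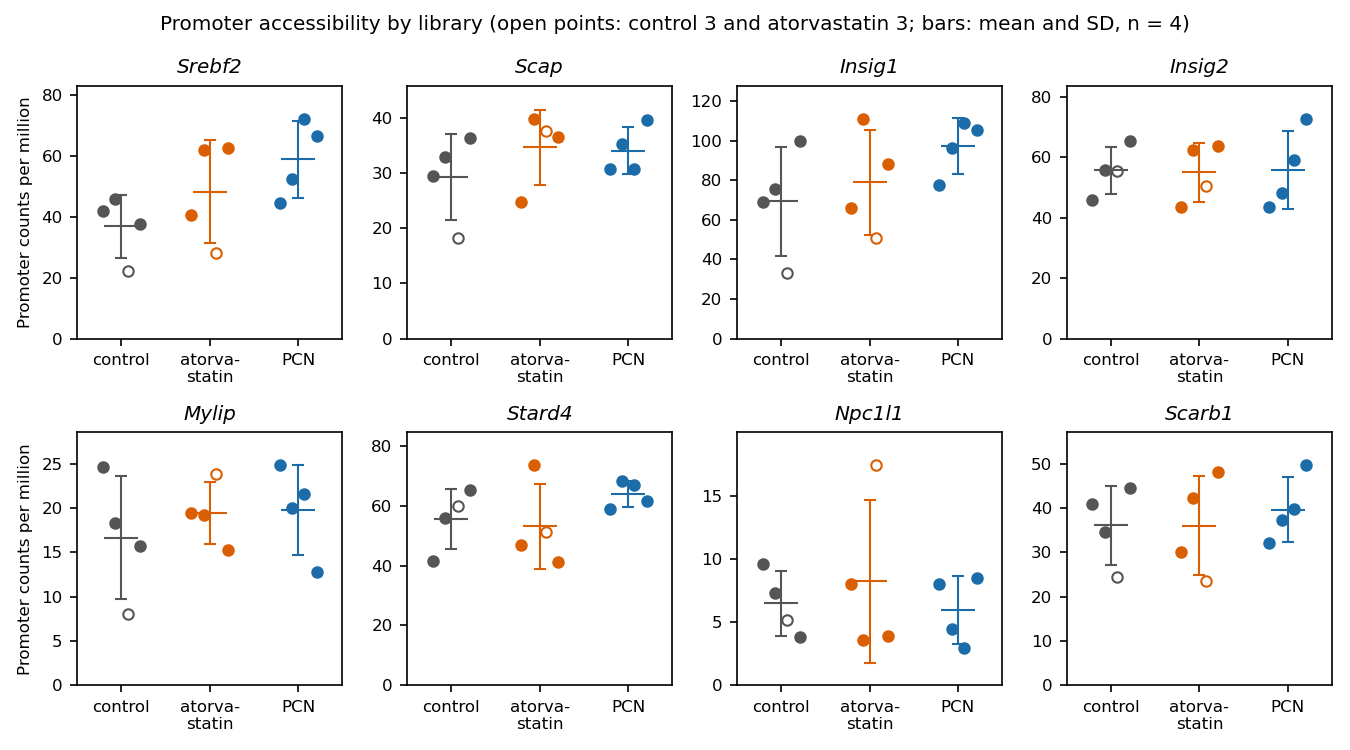
Promoter level in TMM-scaled CPM (vertical axis, from 0, with a separate scale for each gene) of each library, by group, with open points for control 3 and atorvastatin 3 and bars for the mean and SD of 4 libraries. Each panel shows overlapping groups; for Srebf2, the PCN points run from 44.5 to 72.3 and the control points from 22.3 to 46.0.

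Srebf2 (NM_033218, gene at chr15:82147269-82205379) codes for SREBP2 itself. Its promoter level was 42.0, 46.0, 22.3 and 37.7 CPM in control 1 to 4, scaled between libraries by TMM. It was 40.7, 62.0, 28.2 and 62.5 CPM in atorvastatin 1 to 4, and 44.5, 52.6, 72.3 and 66.6 CPM in PCN 1 to 4. All 4 PCN libraries lay above the control mean and 3 of 4 above every control, while atorvastatin was split, with 2 libraries above every control and atorvastatin 3 below the control mean. The group means ± SD (n = 4) were 37.0 ± 10.3 in control, 48.4 ± 16.8 in atorvastatin and 59.0 ± 12.7 CPM in PCN.

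The Srebf2 log2 fold change for PCN was 0.66 ± 0.28 (SE; 95% interval 0.12 to 1.20), the 575th smallest p of 41908 (edgeR quasi-likelihood unadjusted p = 0.0253, adjusted p = 0.918). Without control 3 and atorvastatin 3 it was 0.49 ± 0.23 (edgeR unadjusted p = 0.0339, adjusted p = 0.905). For atorvastatin the log2 fold change was 0.38 ± 0.28 (95% interval -0.16 to 0.92, edgeR adjusted p = 1.0), and 0.39 without the 2 libraries. Leaving out control 3 alone gave 0.20 and atorvastatin 3 alone 0.56 (edgeR unadjusted p = 0.037). PCN and atorvastatin differed by 0.28 ± 0.27 (95% interval -0.25 to 0.81, edgeR adjusted p = 1.0), and by 0.098 without the 2 libraries. Neither step in the order of the group means, PCN over atorvastatin and atorvastatin over control, had an interval clear of 0. The concentration of signal moved with the Srebf2 level, with control 3 (17.3%, 22.3 CPM) and control 4 (20.3%, 37.7 CPM) lower than libraries of smaller share: the highest Srebf2 value, in PCN 3, was in the library with the largest share in the most open promoters (22.6%). With that share as a covariate, added after the data were seen, the PCN difference was 0.37 ± 0.22 (edgeR unadjusted p = 0.103).

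**Figure D2:**
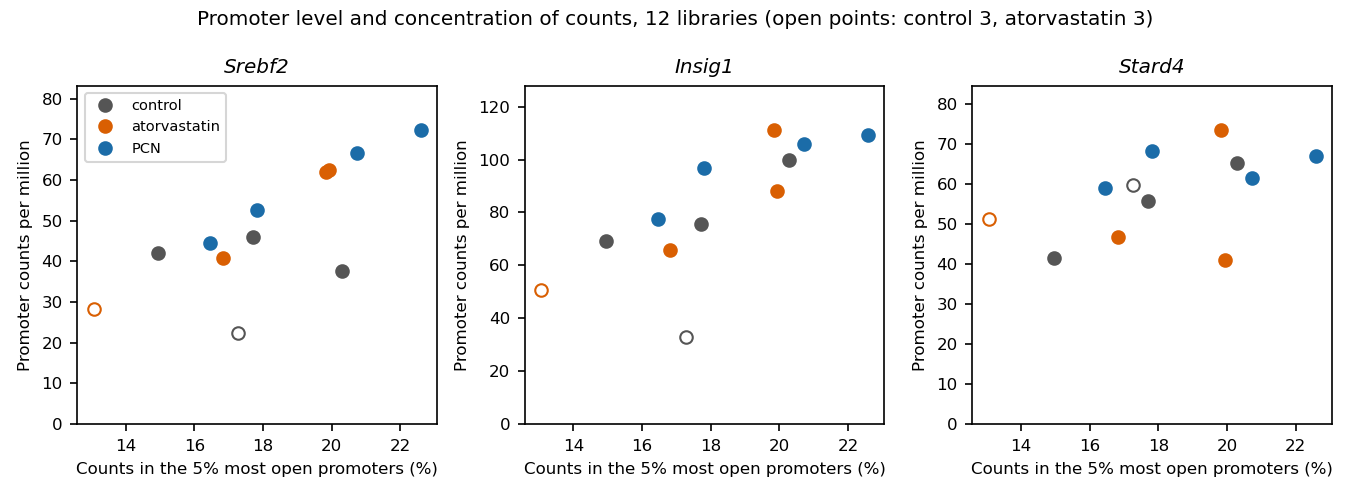
Promoter level in CPM (vertical axis, from 0) of Srebf2, Insig1 and Stard4 against the percentage of a library's promoter counts in the 5% most open promoters (horizontal axis), 1 point per library, coloured by group, open for control 3 and atorvastatin 3. The Srebf2 and Insig1 points lie higher toward the right, where PCN 3 is at 22.6%, with control 3 lying below the others in both panels, and the Stard4 points are more scattered.

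Srebf2 also holds the microRNA gene Mir33 in an intron; its product is known to repress sterol exporters. The mature strand, with the seed (bases 2 to 8) in capitals, lies at chr15:82198127-82198147 on the plus strand.
mmu-miR-33-5p: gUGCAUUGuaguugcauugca
The separate promoter row of Mir33 was at 18.6 to 20.7 CPM in control, 11.1 to 28.9 in atorvastatin and 14.3 to 18.8 in PCN. Its log2 fold change was -0.24 ± 0.28 with PCN and -0.03 ± 0.27 with atorvastatin, and -0.21 and -0.25 without control 3 and atorvastatin 3.

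Scap (NM_001001144, gene at chr9:110333288-110384949) codes for the escort protein. Its promoter was at 29.6, 32.9, 18.3 and 36.4 CPM in control 1 to 4, at 24.8, 39.9, 37.7 and 36.5 in atorvastatin 1 to 4, and at 30.7, 35.4, 30.7 and 39.7 in PCN 1 to 4. Control 3 was the lowest of the 12 libraries and the rest overlapped. PCN gave a log2 fold change of 0.22 ± 0.23 and atorvastatin one of 0.25 ± 0.23, and these were 0.07 and 0.08 without control 3 and atorvastatin 3.

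Insig1 (NM_153526, gene at chr5:28071412-28078662) codes for the sterol-dependent anchor that retains SCAP, and is itself a classical SREBP2 target. Its promoter was at 69.2, 75.5, 33.1 and 99.9 CPM in control 1 to 4, at 65.9, 111.1, 50.7 and 88.2 in atorvastatin 1 to 4, and at 77.7, 96.7, 109.3 and 105.7 in PCN 1 to 4. All 4 PCN libraries lay above the control mean of 69.4 CPM, and 2 lay above every control. The difference was 0.49 ± 0.31 with PCN (95% interval -0.12 to 1.10, edgeR unadjusted p = 0.127, adjusted p = 0.918) and 0.28 without the 2 libraries. With atorvastatin it was 0.19 ± 0.31, and 0.13 without the 2 libraries, with libraries on both sides of the control mean. Like Srebf2, Insig1 was lowest in control 3.

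Insig2 (NM_001271532, gene at chr1:121304353-121332662) codes for the second retention protein, whose liver form is known to be controlled by hormones and nuclear receptors more than by SREBP2. Its promoter was at 45.9, 55.6, 55.4 and 65.4 CPM in control 1 to 4, at 43.4, 62.3, 50.6 and 63.8 in atorvastatin 1 to 4, and at 43.5, 48.2, 58.9 and 72.6 in PCN 1 to 4. The groups lay on top of each other, with means of 55.6, 55.0 and 55.8 CPM. The log2 fold change was 0.01 ± 0.24 with PCN (95% interval -0.45 to 0.48) and -0.0030 ± 0.24 with atorvastatin (95% interval -0.47 to 0.46), intervals that still hold moderate changes in both directions. Without control 3 and atorvastatin 3 the values were 0.03 and 0.05. Of 5 transcript rows of Insig2, 3 carried identical counts. The row NM_178082, at 16.8 CPM, had log2 fold changes of 0.00083 with PCN and -0.19 with atorvastatin.

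**Figure D3:**
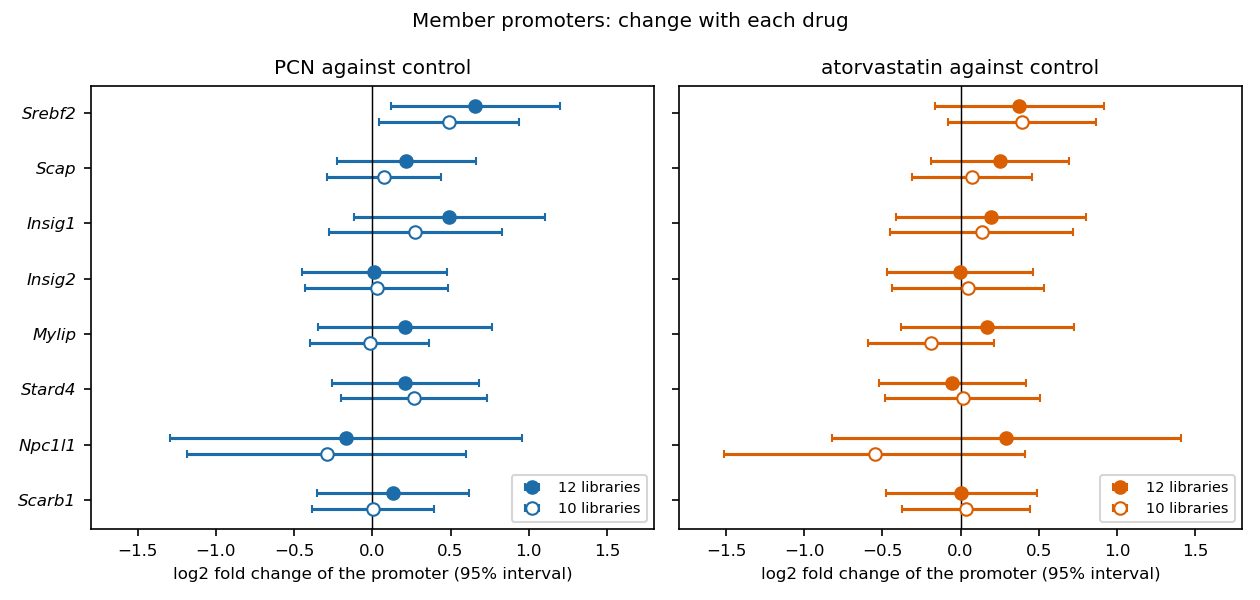
Log2 fold change of each promoter with PCN (left) and atorvastatin (right) against control on the horizontal axis, with 95% intervals, for 12 libraries (filled) and for 10 libraries without control 3 and atorvastatin 3 (open). The Srebf2 intervals with PCN lie above 0 (0.12 to 1.20 with 12 libraries) before any adjustment, and the intervals of the other 7 genes hold 0 in both panels.

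Scarb1 (NM_001205082, gene at chr5:125277087-125341094) codes for the receptor through which hepatocytes take cholesterol from high-density lipoprotein. Its promoter was at 41.0, 34.6, 24.3 and 44.6 CPM in control 1 to 4, at 30.1, 42.2, 23.6 and 48.3 in atorvastatin 1 to 4, and at 32.1, 37.3, 39.7 and 49.7 in PCN 1 to 4. Atorvastatin 3 and control 3 were the lowest libraries. Its log2 fold change was 0.13 ± 0.25 with PCN, falling to 0.0044 without those 2 libraries, and 0.0035 ± 0.25 with atorvastatin, where it was 0.03 without them.

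Npc1l1 (NM_207242, gene at chr11:6211011-6230245) codes for the transporter that takes up free cholesterol from the gut lumen and, in humans, from bile. Its promoter had the lowest CPM of the 8, with window lengths not given, at 9.6, 7.3, 5.2 and 3.8 CPM in control 1 to 4, at 8.0, 3.5, 17.4 and 3.9 in atorvastatin 1 to 4, and at 8.0, 4.4, 2.9 and 8.5 in PCN 1 to 4. Atorvastatin 3 was the highest library. The log2 fold change was 0.29 ± 0.57 with atorvastatin with -0.42 without atorvastatin 3 alone and -0.55 without control 3 and atorvastatin 3, and its sign also turned with limma-voom on all 12 libraries (-0.52). With PCN it was -0.17 ± 0.57, and -0.29 without control 3 and atorvastatin 3.

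Mylip (NM_153789, gene at chr13:45389742-45411940) codes for a ubiquitin ligase that marks lipoprotein receptors for degradation and is switched on by LXR when sterols are high. Its promoter was at 24.7, 18.3, 8.0 and 15.7 CPM in control 1 to 4, at 19.5, 19.2, 23.8 and 15.2 in atorvastatin 1 to 4, and at 24.8, 20.0, 21.5 and 12.8 in PCN 1 to 4. Control 3 was the lowest library. On the log2 scale PCN differed from control by 0.21 ± 0.28 and atorvastatin by 0.17 ± 0.28, and by -0.02 and -0.19 without the 2 libraries.

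Stard4 (NM_001347624) codes for a soluble sterol carrier that moves cholesterol between membranes. Its promoter was at 41.7, 55.9, 59.8 and 65.4 CPM in control 1 to 4, at 46.9, 73.6, 51.2 and 41.1 in atorvastatin 1 to 4, and at 59.0, 68.2, 67.0 and 61.7 in PCN 1 to 4. The PCN libraries were the closest together of the 3 groups (SD 4.38, against 10.1 in control and 14.2 CPM in atorvastatin). All 4 lay above the control mean of 55.7 CPM and 2 above every control. Its log2 fold change was 0.21 ± 0.24 with PCN and -0.05 ± 0.24 with atorvastatin, and 0.26 and 0.013 without control 3 and atorvastatin 3.

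With PCN, 7 of 8 genes lay above 0, with a median log2 fold change of 0.21, and with atorvastatin 6 of 8, with a median of 0.18. Over all 24602 symbols tested the medians were -0.02 and 0.05, with 47.8% and 56.8% above 0. Without control 3 and atorvastatin 3, the medians of the 8 genes were 0.05 and 0.04, with 6 of 8 above 0 for each drug. The medians over all symbols were then -0.05 and -0.06, with 44.6% and 44.0% above 0. Both comparisons share the same control libraries, so their signs are not independent.

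The levels of Srebf2 and Insig1 ran together over the 12 libraries (Pearson r = 0.897 of log2 CPM, and 0.690 over the 10 libraries). Scarb1 ran nearly as closely with Insig1 (0.842) and Srebf2 (0.804) over the 12 libraries. Over the 10 libraries other pairs were closer, such as Insig2 with Scarb1 (0.845) and Scap with Insig2 (0.796). The closeness is therefore not particular to Srebf2 and Insig1. Of 20271 symbols compared, Hspbp1, Pheta1 and Trim7 were most like Srebf2 (r = 0.971, 0.970 and 0.966), and Pik3r2, Cobll1 and Smarcd2 most like Insig1 (r = 0.985, 0.983 and 0.981). These points share libraries and depth, and the correlations are given as a description.

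The other genes of the pathway were described by 4 lists that hold none of the 8 genes. Of their 72 genes, 0 passed edgeR's test with PCN or with atorvastatin. With PCN, 57 of 72 lay above 0, with a median log2 fold change of 0.22, and 7 had an unadjusted p under 0.05, all higher, where 3.75% of all promoters did. That count was 1 without PCN 4, 2 without control 3, 3 without control 1 or PCN 2, 11 without control 4 and 3 with loess offsets. The share of all promoters with an unadjusted p under 0.05 was not counted under these other settings. With atorvastatin, 43 of 72 lay above 0, with a median of 0.08, and 4 had an unadjusted p under 0.05, 3 of them higher, where 1.93% of all promoters did, and 1 did without atorvastatin 2. Of all symbols in the fit of 12 libraries, 47.8% lay above 0 with PCN and 56.8% with atorvastatin. Their medians were -0.02 and 0.05, so the atorvastatin values of the lists were near those of all symbols. Without control 3 and atorvastatin 3, 59 of 72 lay above 0 with each drug, with medians of 0.17 and 0.15. Of all symbols, 44.6% and 44.0% lay above 0 there.

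Among 20 genes of SREBP processing and turnover, 17 lay above 0 with PCN and 11 with atorvastatin, with medians of 0.22 and 0.02. Without control 3 and atorvastatin 3 these were 18 and 16, with medians of 0.19 and 0.14. Of the proteases that release SREBP2, Mbtps1 had log2 fold changes of 0.23 with PCN and -0.05 with atorvastatin, the latter 0.16 without the 2 libraries. Mbtps2 had -0.32 ± 0.46 and -0.77 ± 0.47, and its 4 atorvastatin libraries lay below every control, with the value at -0.33 without control 3 and atorvastatin 3. Srebf1, the paralogue that drives fatty acid synthesis, was 0.25 and 0.32.

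Among 22 synthesis enzymes, 19 lay above 0 with PCN and 15 with atorvastatin, with medians of 0.24 and 0.14, which were 0.21 and 0.14 without control 3 and atorvastatin 3. Hmgcs1, the enzyme before HMG-CoA reductase, was 0.35 with PCN and 0.04 with atorvastatin, and Sqle, which makes squalene epoxide, 0.35 and 0.26. Without the 2 libraries Hmgcs1 was 0.14 and 0.024, and Sqle 0.20 and 0.26. Among 20 genes of uptake and transport, 13 and 9 lay above 0, with medians of 0.07 and -0.04. Without the 2 libraries 11 and 13 did, with medians of 0.05 and 0.13, so the direction with atorvastatin reversed. Soat2, which esterifies cholesterol in hepatocytes, was 0.56 ± 0.23 with PCN (edgeR unadjusted p = 0.0218, adjusted p = 0.918) and 0.37 ± 0.23 with atorvastatin. Npc2, which moves cholesterol out of lysosomes, was 0.28 and -0.05, the latter 0.19 without the 2 libraries. Among 10 genes of LXR and sterol efflux, 8 lay above 0 with each drug, with medians of 0.21 and 0.20. Nr1h3, which codes for LXRα, was -0.01 and 0.21, and Abcg5, a partner in the exporter of sterols into bile, 0.61 ± 0.27 and 0.38 ± 0.27, or 0.40 and 0.27 without control 3 and atorvastatin 3.

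**Figure D4:**
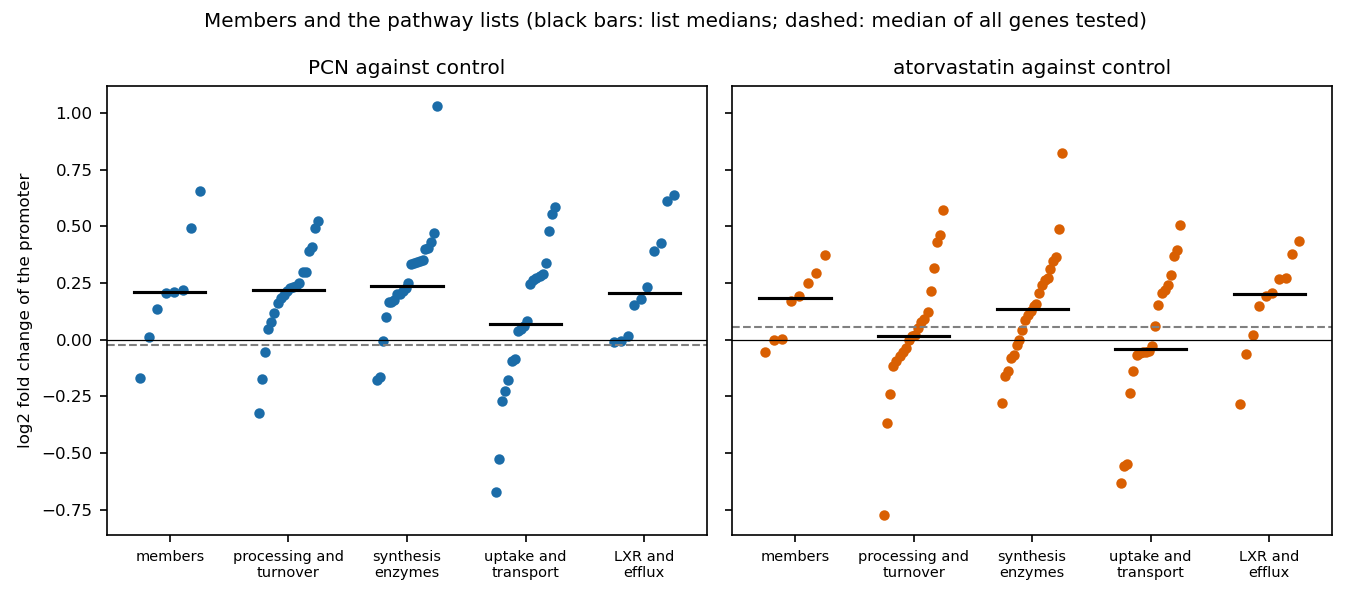
Log2 fold change of each promoter (vertical axis) with PCN (left) and atorvastatin (right) against control, for the 8 genes and the 4 pathway lists; each point is a gene, black bars are list medians and the dashed line is the median of all genes tested (-0.02 and 0.05). The list medians lie between 0.07 and 0.24 with PCN and between -0.04 and 0.20 with atorvastatin.

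A second table held counts in 406518 enhancer regions, of which 182115 could be tested. Its totals ran from 1256648.5 counts in control 4 and 1530063.5 in control 3 to 13078975.5 in atorvastatin 2. In control 3 and control 4, a region at a few CPM therefore holds only a few counts. Within 50 kb of the 8 genes, and not nearer to another protein-coding gene, lay 387 regions in 119 separate loci. Of these, 277 regions in 50 loci could be tested. Regions at a locus overlap and share reads, so they are not independent, and a region's width tied it to the library in which its class had the highest relative count. Scarb1 had 100 tested regions, Insig1 61, Scap 51, Srebf2 23, Insig2 22, Mylip 11, Stard4 9 and Npc1l1 0. With edgeR's quasi-likelihood test 0 of 277 passed with PCN, with atorvastatin, or between the drugs, as did 0% of all regions. With PCN, 219 of 277 lay above 0 (median 0.39) and 7 had an unadjusted p under 0.05, 4 of them higher, against 1.93% of all regions. That count was 1 without PCN 4, 2 without control 1, 17 without control 3 and 19 without atorvastatin 3, and 34 of 285 in the 10 libraries, 28 of them higher. With loess offsets it was 18, 3 of them higher, and the median of all regions turned to -0.13. With atorvastatin, 195 of 277 lay above 0 (median 0.32) and 8 had an unadjusted p under 0.05, all higher, against 2.39%; in the 10 libraries 25 did, 23 of them higher, and with loess offsets 19, 5 of them higher. Leaving out 1 library gave 6 (without control 4) to 27 (without control 2). The shares of 1.93% and 2.39% belong to the fit of all 12 libraries. Those of all regions under the other settings were not counted, so no excess can be read from the counts there. Of all regions tested, 62.0% and 58.4% lay above 0, with medians of 0.17 and 0.12. Without control 3 and atorvastatin 3, the medians near the 8 genes were 0.24 and 0.18 and those of all regions 0.02 and 0.01, with 51.3% and 50.9% of all regions above 0.

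A locus near Insig1 with higher values in both drug groups lay 39.4 kb upstream of its start (chr5:28031905-28032153, as the deposited file gives positions, mm10). Its region of smallest p, chr5:28032052-28032134, was at 3.09, 3.91, 0 and 1.90 CPM in control 1 to 4, at 6.93, 8.69, 4.00 and 6.68 in atorvastatin 1 to 4, and at 7.63, 5.69, 8.63 and 12.5 in PCN 1 to 4. Every library of both drug groups lay above every control, although atorvastatin 3 and control 2 were close. At the low totals of control 3 and control 4, their values here are 0 to a few counts. The region was picked by its p, which favours groups that lie apart. For this region and those below, the share of all enhancer regions whose groups do not overlap was not counted. Its log2 fold change was 1.83 ± 0.63 with PCN (edgeR unadjusted p = 0.0081, adjusted p = 1.0) and 1.45 ± 0.62 with atorvastatin (edgeR unadjusted p = 0.030, adjusted p = 1.0), and 1.44 and 1.26 without control 3 and atorvastatin 3. All 9 regions of this locus lay above 0 with both drugs (0.83 to 1.83 with PCN and 0.62 to 1.45 with atorvastatin). By width the region belongs to atorvastatin 2, which held 1.12 times the mean of the 12 libraries in its class.

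Values went the other way at the next locus, 39.7 kb upstream (chr5:28031648-28031830), where all 5 regions lay below 0 with both drugs. Its medians were -0.85 with PCN and -0.81 with atorvastatin, and -0.52 and -0.26 without control 3 and atorvastatin 3. None of the 5 had an unadjusted p under 0.05. This locus ends at 28031830, just before the 39.4 kb locus begins at 28031905. The loci count as separate only because their regions do not overlap. At 47 kb downstream of the Insig1 start, values were also lower. The region there with the smallest p, named after its values were seen (chr5:28118408-28118546), was at 4.12, 4.56, 4.32 and 3.80 CPM in control 1 to 4, 3.96, 1.20, 0 and 0.974 in atorvastatin 1 to 4, and 1.70, 0.854, 0.750 and 0 in PCN 1 to 4. All controls lay above all PCN libraries, and atorvastatin 1 was as high as the controls. At the low totals of control 3 and control 4, their values of 4.32 and 3.80 CPM are only a few counts. The separation therefore rests on few counts. The log2 fold change with PCN was -2.25 ± 0.97 (edgeR unadjusted p = 0.031, adjusted p = 1.0) and with atorvastatin -1.59 ± 0.95. By width this region belongs to control 2, in whose class control 2 held 1.34 times the mean of the 12 libraries. The other tested regions of the locus belong to control 1 and atorvastatin 1, and the part of this in the difference was not tested.

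**Figure D5:**
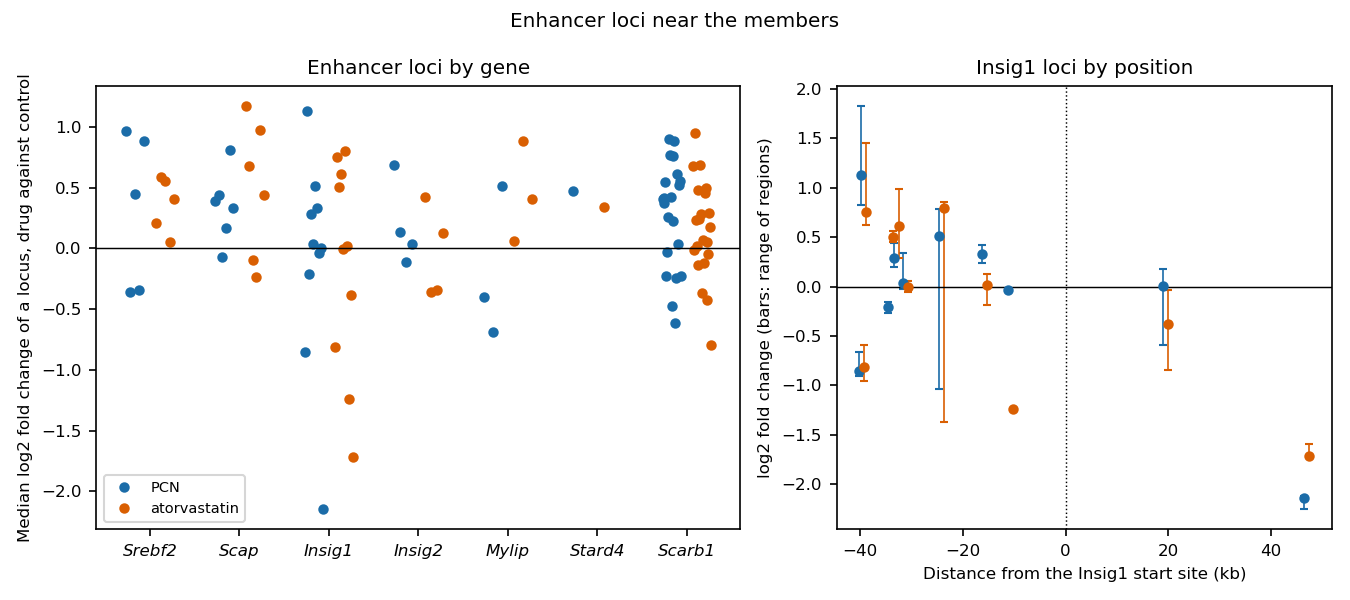
Left, median log2 fold change of the tested regions of each enhancer locus (vertical axis) with PCN and with atorvastatin against control, by gene; right, the Insig1 loci by distance from the start site in kb (horizontal axis), with bars for the range of regions at a locus. The Insig1 loci span the widest range, from a median of 1.13 at 39.4 kb upstream to -2.14 at 47 kb downstream with PCN. The most open region of the locus at 47 kb averaged only 2.19 CPM over the 12 libraries.

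Inside Srebf2, the region of highest level (chr15:82183690-82183872, 36.5 kb after the start) averaged 15.7 CPM over the 12 libraries. Its highest library was atorvastatin 3 (23.7 CPM). By width the region belongs to atorvastatin 3, which held 3.98 times the mean of the 12 libraries in its class. The region was 0.56 ± 0.37 with PCN and 0.66 ± 0.37 with atorvastatin on the log2 scale (edgeR adjusted p = 1.0 for each), and 0.34 and 0.33 without the 2 libraries. Near Scap, a locus 3.5 kb upstream held 10 regions with a median of 1.17 with atorvastatin and 0.39 with PCN, and of 0.73 and 0.0080 without control 3 and atorvastatin 3. Its region chr9:110329716-110329862 had the smallest p for atorvastatin of the tested regions near Scap. The region was at 8.50, 8.47, 0 and 5.70 CPM in control 1 to 4, at 12.9, 12.9, 15.2 and 16.98 in atorvastatin 1 to 4, and at 7.21, 6.55, 9.38 and 7.88 in PCN 1 to 4. The atorvastatin libraries lay above every control and every PCN library. The log2 fold change was 1.29 ± 0.54 with atorvastatin (edgeR unadjusted p = 0.026, adjusted p = 1.0) and 0.89 without control 3 and atorvastatin 3. PCN minus atorvastatin was -0.90 ± 0.51 (edgeR unadjusted p = 0.094). By width this Scap region belongs to control 4, which held 1.82 times the mean of the 12 libraries in its class. The part of width in these differences was not tested.

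Near Scarb1, the region of highest level lay 27.6 kb outside the gene (chr5:125249273-125249465) at 16.0, 22.1, 25.4 and 19.0 CPM in control 1 to 4. It was at 20.8, 31.2, 55.9 and 26.7 in atorvastatin 1 to 4 and at 28.0, 29.6, 28.5 and 27.6 in PCN 1 to 4. The PCN libraries were close together and above every control, and atorvastatin 3 stood far above the rest. This was also the tested region near Scarb1 with the smallest p for atorvastatin. By width it belongs to control 3, which held 4.11 times the mean of the 12 libraries in its class. Atorvastatin and control differed by 0.71 ± 0.30 on the log2 scale (edgeR unadjusted p = 0.029, adjusted p = 1.0) and PCN and control by 0.46 ± 0.31, and by 0.52 and 0.62 without control 3 and atorvastatin 3. Within the gene, chr5:125304579-125304707, the region of smallest p for PCN, was 0.95 ± 0.45 with PCN (edgeR unadjusted p = 0.046, adjusted p = 1.0). By width it belongs to PCN 1, which held 1.26 times the mean of the 12 libraries in its class. No tested region near Insig2, Mylip or Stard4 had an unadjusted p under 0.05 with either drug.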

How the data were processed

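ATAC-seq libraries of mouse liver (3 groups of 4) were analysed from the estimated counts deposited by the authors for promoters and enhancers, unnormalised and in steps of 0.5. Their unit follows from the values themselves. The submitters' processing notes name the build mm10 and, without their roles, HOMER 4.10, bedtools 2.30.0, STAR 2.7.9a and Trimmomatic; the rules for promoters, enhancers and counting are not given in the sources used here. The promoter table gives no window length, so levels of different genes are not compared per base. Counts were rounded to whole numbers and fitted in R 4.3.3 with edgeR 4.0.16 (1 fit of 12 libraries, quasi-likelihood test, TMM scaling; filterByExpr kept features by min.count 10 and min.total.count 15), with Benjamini-Hochberg adjustment over all features tested and a threshold of 0.05. This left 41908 promoters and 182115 enhancers. Errors are approximate SEs from the F statistic, with normal 95% intervals. Enhancers within 50 kb of a gene body were assigned to it where no other protein-coding gene was nearer. limma 3.58.1 (voom) and DESeq2 1.42.0 served as alternatives. The fit was also run on simulated counts with known changes. That outcome is not reported here, so it says nothing of how well changes are found in these data.

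Members and lists were chosen with earlier results of these data known. Named were all 8 genes, 10 pathway genes picked for their role (1 of them is not reported here), the 3 symbols most correlated with Srebf2 and with Insig1 (log2 CPM, prior count 2), and, per gene, the enhancer region of highest mean and of smallest p per drug.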

Additional observations from a re-analysis of the deposited data

How the results depend on the processing

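The count of called promoters among the 8 genes was 0 under all 25 alternatives in each of the 3 comparisons, as it was for the pathway genes (24 alternatives) and the enhancer regions (19). Over all promoters with PCN, 6 of 41915 were called in the 10 libraries and 124 of 41915 there with the replicate block. The other alternatives for the 8 genes called 0 of all promoters with PCN. The Srebf2 log2 fold change with PCN was above 0 in 25 of 25 alternatives (0.31 to 0.80) and had an unadjusted p under 0.05 in 21. By edgeR's quasi-likelihood test it was 0.49 without control 3 (unadjusted p = 0.087), 0.55 without PCN 3 (unadjusted p = 0.082) and 0.60 without PCN 4 (unadjusted p = 0.062). The p was also over 0.05 with the concentration of signal as a covariate. The lowest depth, 1679054 promoter counts in control 4, limits the precision of the low promoters, Npc1l1 most of all.

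Signs changed as follows. For Insig2 with PCN the value was -0.011 with DESeq2 size factors, -0.10 with library totals, -0.22 with loess offsets, -0.0077 with a minimum count of 30, -0.0074 with DESeq2, -0.0063 with the replicate block, -0.14 with the covariate and -0.040 with the block in 10 libraries. With loess offsets, Stard4 with PCN was -0.0028, Npc1l1 0.19 and Scarb1 -0.054. With the covariate, Npc1l1 was 0.37 and Scarb1 -0.068, both with PCN. Mylip with PCN was -0.017 in 10 libraries and -0.021 there with the block, where Scarb1 was -0.064. For atorvastatin in 10 libraries, Insig2 was 0.048, Mylip -0.19, Stard4 0.013 and Npc1l1 -0.55; with the block added they were 0.016, -0.080, 0.023 and -0.59. With limma-voom, Mylip was -0.022 and Npc1l1 -0.52, and Insig2 with the covariate was 0.0063. Scarb1 with atorvastatin was -0.012 with DESeq2 size factors, -0.081 with library totals, -0.10 with loess offsets, -0.014 with a minimum count of 30, -0.013 with DESeq2, -0.039 with limma-voom, -0.033 with the replicate block, -0.054 with the covariate and -0.027 with the block in 10 libraries. Srebf2 for PCN minus atorvastatin was -0.017 with that last setting. The cause was not tested. The covariate and the block in 10 libraries were chosen after seeing the data. Library totals moved the median of all promoters with PCN by -0.10.

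Leaving out 1 library at a time, values with PCN ran from 0.49 to 0.80 for Srebf2, 0.062 to 0.31 for Scap, 0.27 to 0.70 for Insig1, 0.093 to 0.29 for Stard4, -0.14 to 0.12 for Insig2, -0.015 to 0.49 for Mylip, -0.38 to 0.10 for Npc1l1 and -0.0058 to 0.23 for Scarb1. With atorvastatin they ran from 0.20 to 0.56 for Srebf2, 0.099 to 0.38 for Scap, -0.033 to 0.40 for Insig1, -0.091 to 0.092 for Insig2, -0.057 to 0.45 for Mylip, -0.27 to 0.054 for Stard4, -0.42 to 0.55 for Npc1l1 and -0.17 to 0.17 for Scarb1.

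The replicate numbers gave no clear answer on whether the libraries are paired. Deviations of 12 same-numbered pairs correlated at -0.416 to 0.50 (median 0.16), with 6 of 12 over 0.1. The 36 pairs of other numbers correlated at -0.70 to 0.65 (median -0.02), with 7 of 36 over 0.1. Of the 12 libraries, 5 correlated best with their own number. A batch by replicate number was not tested. With the replicate block, Srebf2 with PCN was 0.70 and 0 of 8 genes were called. The block in 10 libraries called 124 of 41915 promoters with PCN, none of them among the 8 genes, and Srebf2 was 0.31.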

Other observations

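Ebp, the sterol isomerase of the cholesterol synthesis list, had the largest log2 fold change of the 72 pathway genes with each drug and was chosen after its values were seen. It was at 12.9 ± 5.94 (SD, n = 4) in control, 27.7 ± 6.53 in PCN and 23.9 ± 4.82 CPM in atorvastatin. The log2 fold change was 1.03 ± 0.28 with PCN, where the groups did not overlap, and 0.82 ± 0.28 with atorvastatin (edgeR unadjusted p = 0.0014 and 0.0075, neither past the threshold after adjustment). Abcg8, the partner of Abcg5 in the sterol exporter, was 0.64 ± 0.27 with PCN (edgeR unadjusted p = 0.026). Its lowest control value (16.3 CPM) and its highest PCN value (60.8 CPM) were the same as those of Abcg5. Both genes are counted among the pathway genes with an unadjusted p under 0.05 with PCN, and they are not independent results. Gramd1b, a carrier of cholesterol from the plasma membrane, was the 1 pathway gene lower with atorvastatin at an unadjusted p under 0.05 (-0.63 ± 0.28, edgeR unadjusted p = 0.035, and -0.30 without control 3 and atorvastatin 3).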
